A study of Mus musculus with 8 samples.

Results

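Transcripts of 32 genes that run the tricarboxylic acid cycle and feed pyruvate and glutamate into it were measured by bulk RNA sequencing in CD4+ T cells, the helper T cells, of mouse spleen. The genes were chosen by symbol, as enzymes of the cycle other than succinate dehydrogenase and succinyl-CoA ligase, with the pyruvate dehydrogenase complex, the enzymes that refill the cycle, and their carriers. Each symbol matched 1 row of the deposited table, which gave 32 of 54532 listed genes. Cells had been given dimethyl succinate for 3 days in 4 libraries and vehicle, DMSO by the file headers, in the other 4. All 8 were of wild-type genotype, and the labels give no strain, age, dose or activating stimulus, and no duration for the vehicle. Whether replicates stem from different animals or cultures is not stated. Every p-value and interval below therefore reflects just the scatter of these libraries, which may be technical. In bulk RNA, fewer cells of a type and less RNA per cell cannot be told apart.

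The cycle oxidises acetyl-CoA in the mitochondrial matrix and passes electrons to the respiratory chain. Pyruvate enters through the mitochondrial pyruvate carrier and the pyruvate dehydrogenase complex, and glutamine carbon enters as glutamate and 2-oxoglutarate. Activated T cells draw on both routes, and they export citrate for lipid synthesis. Dimethyl succinate is an ester of succinate that crosses membranes and is cleaved inside cells, and succinate lies in the cycle between 2-oxoglutarate and fumarate. The question put to the libraries was which transcripts of these cells differ after exposure to the ester.

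Total counts ran from 14663698 to 16688854 per dimethyl succinate library and from 13407295 to 15738869 per vehicle library. The 32 genes together took 0.305% to 0.316% of all counts in dimethyl succinate libraries and 0.302% to 0.314% in vehicle libraries. Vehicle replicate 4 stood apart from the others. Its mean correlation with the other libraries was 0.981, where the other 7 had 0.989 to 0.991. The 13 protein-coding genes of the mitochondrial genome gave 0.200% of its counts, against 1.08% to 1.39% elsewhere. It was kept, and the fold changes of the members are given with and without it. T cell markers (6 genes, Cd4 and Cd3e among them) summed to 1496 to 1568 CPM (counts scaled to the library's total) in dimethyl succinate libraries and to 1262 to 1549.6 CPM in vehicle libraries, the lowest being vehicle replicate 4. Summed markers of other cells were far lower in dimethyl succinate and vehicle libraries, at 5.85 to 7.54 and 5.50 to 5.98 CPM for CD8 T cells, 3.06 to 4.30 and 3.03 to 3.69 CPM for B cells, 1.19 to 2.19 and 1.78 to 2.33 CPM for natural killer cells, and 1.71 to 2.60 and 1.20 to 1.74 CPM for monocytes and macrophages. In the same groups they were 10.6 to 11.2 and 8.37 to 12.4 CPM for dendritic cells, with Siglech at 0, 5.33 to 5.85 and 4.79 to 11.0 CPM for erythroid cells and platelets, and 34.3 to 38.9 and 28.7 to 40.3 CPM for stroma and endothelium.

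No member passed the test between the groups. In edgeR's quasi-likelihood test, adjusted by Benjamini-Hochberg over 13981 genes, 0 of 32 members and 0 of all genes, 0%, passed 0.05, and the lowest adjusted p of a member was 0.802. At an unadjusted p below 0.05 there were 0 of 32 members, where 5.76% of all tested genes were, and DESeq2 and limma-voom also had 0 members at either threshold. Over all genes DESeq2 called 4 and limma-voom 0. The members lay on both sides of 0, with 16 of 32 above it, beside 49.6% of all genes. Their median log2 fold change, dimethyl succinate over vehicle, was -0.0017, beside -0.0011 over all genes. Without vehicle replicate 4 the test called 28 of 14232 genes, 0.197%, and 0 of 32 members, where 18 of 32 lay above 0, beside 50% of all genes, and the median over the members was 0.018.

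The intervals set limits on the size of a difference between these groups of libraries, given their own scatter. For 28 of 32 members the 95% interval of the fold change lay within 1.5-fold in either direction, beside 71.7% of all genes, and for 21 of 32 it lay within 1.25-fold, beside 42.9%. Among the 26 members with a mean of at least 10 CPM, 25 lay within 1.5-fold, beside 96.3% of all genes at that level. The exception was Mpc2. Within 1.25-fold were 21 of these 26, beside 66.4%, and the 5 beyond it were Mdh1, Mpc1, Mpc2, Pdp1 and Pdhx. The other members whose interval passed 1.5-fold, Me1, Abat and Aldh5a1, were the 3 with the lowest counts. Without vehicle replicate 4, 24 of 32 members lay within 1.25-fold and 29 of 32 within 1.5-fold, beside 54.5% and 72.9% of all genes. At 10 CPM and above these were 24 of 26 and 26 of 26 members, beside 85.7% and 98.9%.

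**Figure D1:**
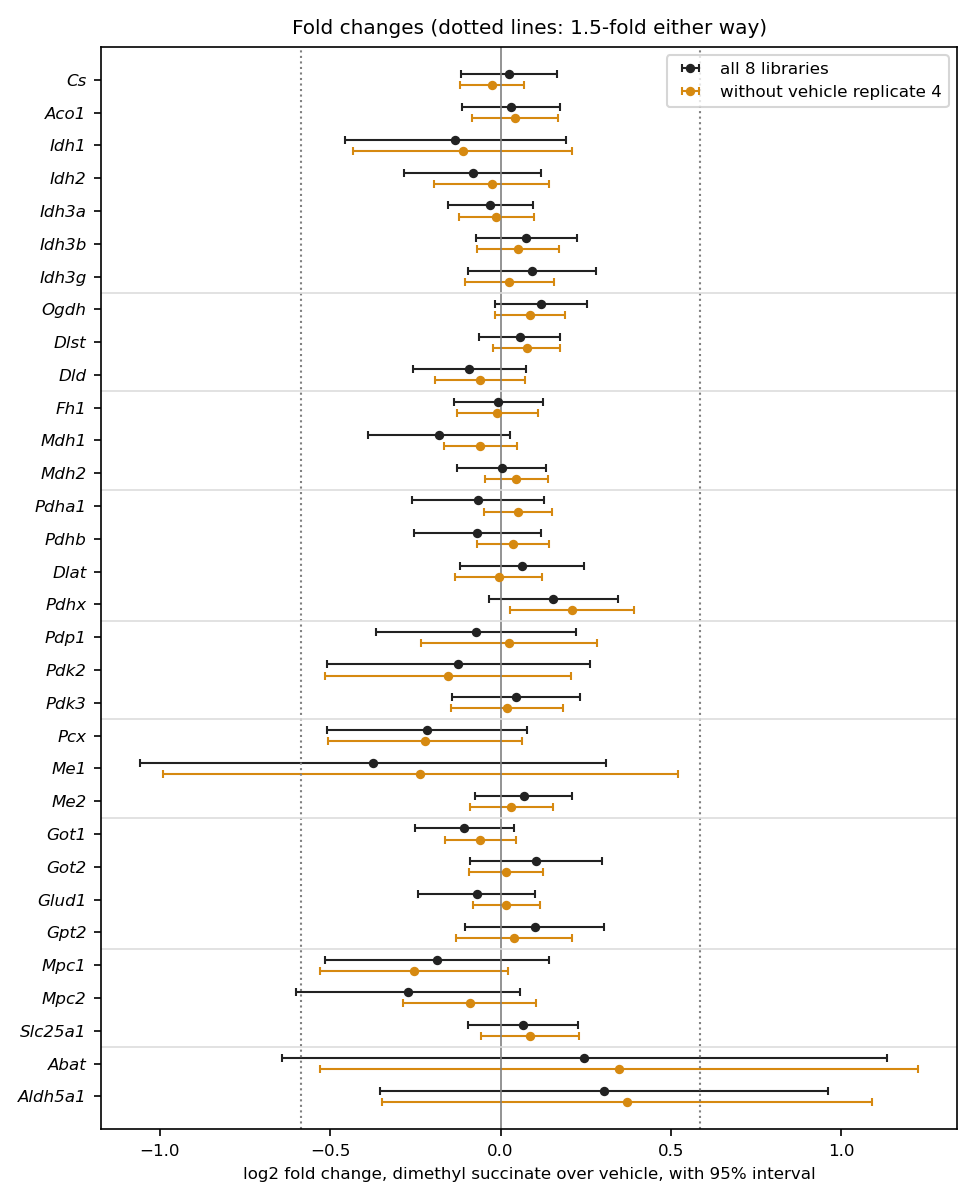
Log2 fold change of each of the 32 genes, dimethyl succinate over vehicle, with its 95% interval, from all 8 libraries (black) and without vehicle replicate 4 (orange), in the order of their roles, with dotted lines at 1.5-fold either way. With all 8 libraries every interval takes in 0, and without vehicle replicate 4 that of Pdhx, 0.027 to 0.39, does not.

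Levels across the pathway spanned a wide range per length. The FPKM values that the authors deposited divide counts by the listed gene length and a scaled library total. They put Mdh2 highest over all 8 libraries. Mdh2 stood at 88.5 ± 1.53 FPKM in dimethyl succinate libraries and 88.6 ± 5.59 FPKM in vehicle libraries (SD, n = 4 each). Got1 followed with 84.7 ± 2.18 and 91.5 ± 7.81 FPKM in the same groups, then Glud1 with 75.0 ± 3.30 and 79.1 ± 9.59 FPKM, Mdh1 with 54.7 ± 2.03 and 62.2 ± 10.6 FPKM, and Cs with 48.8 ± 1.65 and 48.1 ± 3.35 FPKM. In vehicle libraries the ranges of mean ± SD of Mdh2 and Got1 overlapped, with Got1 the higher. The lowest were Abat, at 0.131 ± 0.0281 and 0.110 ± 0.0613 FPKM in dimethyl succinate and vehicle libraries, then Aldh5a1 at 0.224 ± 0.0801 and 0.183 ± 0.0279 FPKM, Me1 at 0.227 ± 0.0536 and 0.296 ± 0.0907 FPKM, Pdk2 at 1.82 ± 0.462 and 1.99 ± 0.201 FPKM, and Pcx at 1.79 ± 0.195 and 2.09 ± 0.291 FPKM. These ranges overlapped in both groups for Abat and Aldh5a1, for Aldh5a1 and Me1, and for Pdk2 and Pcx. Mdh2 lay at percentile 96.4 of the tested genes by FPKM and Abat at percentile 1.09. The listed length equalled all annotated exon bases for 30 of 32 members and was 0.729 to 2.97 times its longest annotated transcript, with Me2 and Dlst at the ends, so the order of levels depends on the gene models. The coordinates of 31 members equalled those of GENCODE M21 (mouse build GRCm38), the exception being Me2, and coordinates below are read as GRCm38.

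**Figure D2:**
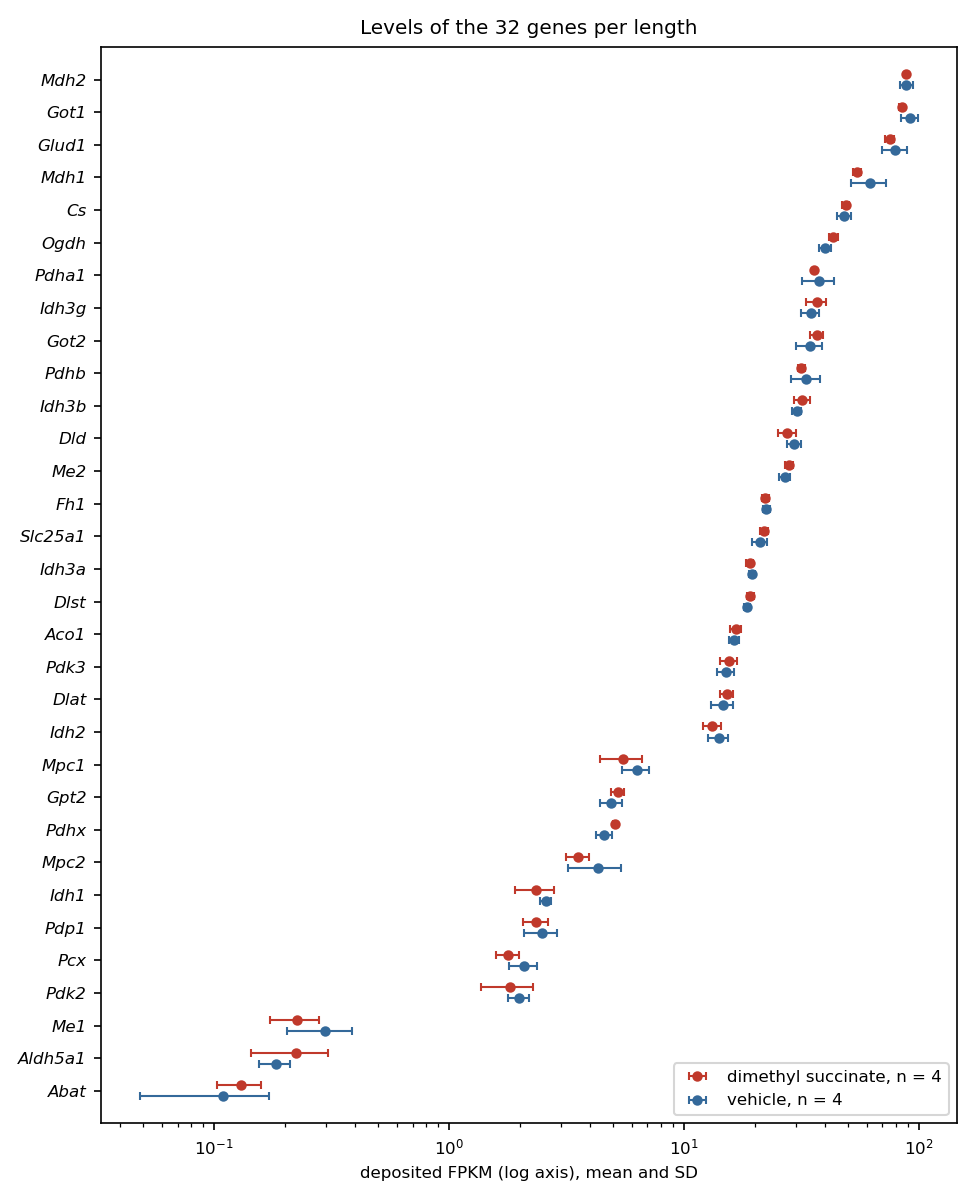
Mean deposited FPKM with SD of each of the 32 genes on a log axis, in dimethyl succinate (red, n = 4) and vehicle (blue, n = 4) libraries, ordered by the mean over all 8. The levels ran from 0.120 FPKM for Abat to 88.6 FPKM for Mdh2.

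Citrate synthase, encoded by Cs, joins acetyl-CoA to oxaloacetate at the head of the cycle. Cs stood at 277, 284, 278 and 298 CPM in dimethyl succinate libraries 1 to 4, and at 287, 287, 293 and 249 CPM in vehicle libraries 1 to 4. The groups overlapped, and vehicle replicate 4 was the lowest of all 8. Its log2 fold change, 0.026 ± 0.0652 (SE), had a 95% interval of -0.12 to 0.17 and was -0.025 without that library. Aco1, a cytosolic aconitase that doubles as an iron-sensing RNA-binding protein, averaged 75.5 ± 4.17 CPM in dimethyl succinate libraries and 73.9 ± 3.74 CPM in vehicle libraries (SD, n = 4 each), a log2 fold change of 0.031, or 0.043 without vehicle replicate 4.

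Isocitrate dehydrogenases turn isocitrate into 2-oxoglutarate. The NAD-linked enzyme of the cycle has a catalytic subunit, encoded by Idh3a, with Idh3b and Idh3g as its partners, and these had log2 fold changes of -0.030, 0.076 and 0.091. Without vehicle replicate 4 the values for Idh3a, Idh3b and Idh3g were -0.012, 0.051 and 0.026. Idh3g stood at 115, 91.0, 97.5 and 97.1 CPM in dimethyl succinate libraries, against 100.4, 96.8, 97.4 and 80.9 CPM in vehicle libraries. Its highest library was dimethyl succinate replicate 1 and its lowest vehicle replicate 4, and the other 6 overlapped. The NADP-linked forms, mitochondrial Idh2 and cytosolic Idh1, had log2 fold changes of -0.082 and -0.13, and of -0.026 and -0.11 without that library. Idh2 was several times more abundant per length than Idh1, at 13.2 ± 1.10 against 2.35 ± 0.444 FPKM in dimethyl succinate libraries and 14.0 ± 1.42 against 2.59 ± 0.139 FPKM in vehicle libraries (SD, n = 4 each).

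The 2-oxoglutarate dehydrogenase complex makes succinyl-CoA, the step before succinate is formed. Ogdh (chromosome 11 from 6291633 to 6356642 on the plus strand), its first enzyme, stood at 253, 229, 235 and 235 CPM in dimethyl succinate libraries, against 234, 213, 226 and 204 CPM in vehicle libraries. Dimethyl succinate replicates 1, 3 and 4 exceeded all vehicle libraries, 3 and 4 by a small margin, and replicate 2 lay among them. With all 8 libraries its unadjusted p of 0.0803, from the quasi-likelihood test of edgeR, was the lowest of all members, and its log2 fold change was 0.12 ± 0.0626 (SE), or 0.086 without vehicle replicate 4. Dlst (chromosome 12 from 85110833 to 85134845 on the plus strand), the succinyltransferase of the complex, stood at 187, 183, 177 and 192 CPM and 176, 174, 176 and 185 CPM in dimethyl succinate and vehicle libraries. Vehicle replicate 4 lay inside the dimethyl succinate range, and the other 3 vehicle libraries lay below it. Its log2 fold change was 0.056 ± 0.0552 (SE), or 0.077 without that library. Dld, the lipoamide dehydrogenase that this complex shares with pyruvate dehydrogenase, was at -0.092, or -0.060 without it.

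Fumarase and malate dehydrogenase act after succinate is oxidised. Fh1, which encodes fumarase, averaged 75.9 ± 2.79 CPM in dimethyl succinate libraries and 76.3 ± 2.54 CPM in vehicle libraries (SD, n = 4 each), a log2 fold change of -0.0066 with an interval of -0.14 to 0.12, or -0.0089 without vehicle replicate 4. Mdh2, the malate dehydrogenase of the matrix, stood at 324, 309, 319 and 318 CPM in dimethyl succinate libraries and 302, 308, 313 and 345 CPM in vehicle libraries. The groups overlapped and vehicle replicate 4 was highest, with a log2 fold change of 0.0031 whose sign turned under 4 other tools, scalings or units. It was 0.046 without that library. Mdh1 (chromosome 11 from 21556787 to 21572367 on the minus strand), the cytosolic form that works in the malate-aspartate shuttle, stood at 141, 137, 138 and 149 CPM in dimethyl succinate libraries, against 139.7, 155, 147 and 199 CPM in vehicle libraries. Vehicle replicate 4 stood clear of the other 7, which overlapped. The log2 fold change of Mdh1 was -0.18 ± 0.0965 (SE), and it was -0.059 without that library.

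The pyruvate dehydrogenase complex turns pyruvate into acetyl-CoA. Pdha1 (chromosome X from 160122209 to 160138413 on the minus strand) encodes the alpha subunit of its first enzyme and stood at 134, 134, 136 and 137 CPM in dimethyl succinate libraries, against 133, 130.0, 128 and 174 CPM in vehicle libraries. The first 3 vehicle libraries lay below all 4 dimethyl succinate libraries by a small margin, and vehicle replicate 4 lay far above all. The gene Map3k15 on the opposite strand shares 16.1% of its exon bases, so its counts are uncertain. Its log2 fold change was -0.065 ± 0.0897 (SE) with all libraries and 0.051 without vehicle replicate 4. Pdhb, the beta subunit, stood at 120.4, 125, 118 and 127 CPM and 123, 116, 121 and 156 CPM in dimethyl succinate and vehicle libraries. It was also highest in vehicle replicate 4, while the other libraries of the groups overlapped. Its log2 fold change was -0.068, or 0.037 without that library. Dlat, the acetyltransferase core, was lowest in vehicle replicate 4 at 61.4 CPM, and its log2 fold change was 0.062, or -0.0056 without it.

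Pdhx (chromosome 2 from 103021075 to 103073513 on the minus strand) encodes the protein X that tethers the lipoamide dehydrogenase to the complex. It stood at 19.9, 19.8, 20.4 and 20.4 CPM in dimethyl succinate libraries, against 17.2, 17.6, 17.5 and 20.1 CPM in vehicle libraries, on 291 to 334 counts per dimethyl succinate library and 234 to 289 per vehicle library. Vehicle replicate 4 lay among the dimethyl succinate libraries, while its 3 fellow vehicle libraries were all lower. Fitted on all 8, Pdhx had a log2 fold change of 0.15 ± 0.0875 (SE), interval -0.035 to 0.34. Without vehicle replicate 4 it was 0.21, with edgeR's quasi-likelihood p at 0.0263 unadjusted and 0.496 adjusted, and Pdhx was the 1 member of 32 with an unadjusted p below 0.05 there, beside 8.54% of all genes. Among the other libraries left out in turn, leaving out vehicle replicate 1 gave 3 such members, Mpc2, Mdh1 and Ogdh, beside 6.87% of all genes, leaving out vehicle replicate 2 gave Pcx, beside 5.33%, and leaving out dimethyl succinate replicate 4 gave Mpc2, beside 5.14%. With all 8 libraries no member's groups were free of overlap, beside 4.82% of all genes. Without that library Pdhx, Dlst and Pdha1 were higher in every dimethyl succinate library than in any vehicle library, 3 of 32 members beside 4.93% of all genes. In the other direction there were 0 of 32, beside 4.68%, and 9.61% of all genes were free of overlap either way.

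Kinases switch the pyruvate dehydrogenase complex off and phosphatases switch it on. Pdk3 averaged 40.2 ± 3.26 CPM in dimethyl succinate libraries and 39.0 ± 3.29 CPM in vehicle libraries (SD, n = 4 each), and Pdk2 averaged 5.82 ± 1.48 CPM and 6.32 ± 0.646 CPM in the same groups. Pdk3 had a log2 fold change of 0.045 with an interval of -0.14 to 0.23, and Pdk2 of -0.12 with an interval of -0.51 to 0.26. These were 0.019 for Pdk3 and -0.15 for Pdk2 without vehicle replicate 4. Pdk2 stood at 7.86, 4.36, 5.75 and 5.30 CPM in dimethyl succinate libraries and 7.06, 5.67, 6.65 and 5.91 CPM in vehicle libraries, and both its highest and its lowest library were given dimethyl succinate. Pdp1, a phosphatase of the complex, had a log2 fold change of -0.072, or 0.025 without vehicle replicate 4.

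Pyruvate can also refill the cycle directly. Pcx, pyruvate carboxylase, makes oxaloacetate and stood at 7.24, 8.89, 8.02 and 9.27 CPM in dimethyl succinate libraries, against 10.7, 7.89, 10.8 and 9.53 CPM in vehicle libraries. The groups overlapped, with a log2 fold change of -0.22 ± 0.136 (SE) and an interval of -0.51 to 0.078, or -0.22 without vehicle replicate 4. Malic enzymes turn malate into pyruvate. Me2, the mitochondrial NAD-linked form, averaged 69.3 ± 2.48 CPM in dimethyl succinate libraries and 66.1 ± 3.62 CPM in vehicle libraries (SD, n = 4 each), a log2 fold change of 0.068, or 0.032 without that library. Me1, the cytosolic NADP-linked form, rested on 10 to 19 counts per dimethyl succinate library and 10 to 21 per vehicle library. It stood at 0.683, 0.776, 1.16 and 0.895 CPM in dimethyl succinate libraries, against 1.41, 0.955, 0.748 and 1.46 CPM in vehicle libraries. These overlapped, its log2 fold change of -0.37 ± 0.316 (SE) had an interval of -1.06 to 0.31, and it was -0.23 without vehicle replicate 4. A processed pseudogene, Gm7049, shares 21.1% of the 50-base windows of its transcripts.

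Glutamate enters by transamination or by glutamate dehydrogenase, encoded by Glud1. Glud1 stood at 301, 319, 318 and 335 CPM in dimethyl succinate libraries, against 308, 318, 319 and 393 CPM in vehicle libraries. Apart from vehicle replicate 4 the libraries overlapped, and the log2 fold change was -0.070 ± 0.0799 (SE), or 0.017 without it. Got1 and Got2 are the cytosolic and mitochondrial aspartate aminotransferases. Got1 stood at 223, 214, 209.7 and 220.2 CPM in dimethyl succinate libraries and 212, 224, 242 and 255 CPM in vehicle libraries, overlapping groups with vehicle replicate 4 highest and a log2 fold change of -0.11 ± 0.0665 (SE). For Got1 this was -0.059 without that library. Got2 stood at 196, 176, 172 and 172 CPM in dimethyl succinate libraries and 172, 175, 184 and 135 CPM in vehicle libraries, with vehicle replicate 4 lowest, and its log2 fold change was 0.10 ± 0.0894 (SE), or 0.015 without that library. Other annotated genes share 25.6% of the 50-base windows of Got2 transcripts, so its counts are uncertain. Gpt2, the mitochondrial alanine aminotransferase, was at 0.10, or 0.039 without it.

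Carriers bring pyruvate in and citrate out. Mpc1 and Mpc2 encode the subunits of the mitochondrial pyruvate carrier. Mpc2 (chromosome 1 from 165460637 to 165481214 on the plus strand) stood at 25.8, 24.5, 24.2 and 30.7 CPM in dimethyl succinate libraries, against 24.4, 30.0, 29.5 and 42.9 CPM in vehicle libraries. Vehicle replicate 4 was highest by a wide margin and the others overlapped. The log2 fold change of Mpc2, the largest in size among members of at least 10 CPM, was -0.27 ± 0.151 (SE), with an interval of -0.60 to 0.057, and -0.091 without that library. Mpc1 was at 14.0, 11.9, 12.0 and 8.43 CPM and 15.3, 12.5, 13.6 and 11.2 CPM in dimethyl succinate and vehicle libraries. Dimethyl succinate replicate 4 was its lowest, and the log2 fold change was -0.19 ± 0.152 (SE), or -0.26 without vehicle replicate 4. The gene 4930506C21Rik on the opposite strand shares 23.1% of the exon bases of Mpc1, and counting by strand was not stated. Slc25a1, the citrate exporter, had a log2 fold change of 0.065 with an interval of -0.10 to 0.23, or 0.086 without vehicle replicate 4.

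The GABA shunt leads from glutamate to succinate around the 2-oxoglutarate dehydrogenase step. Its transaminase Abat rested on 13 to 22 counts per dimethyl succinate library and 3 to 21 per vehicle library, and Aldh5a1, which makes succinate from succinic semialdehyde, on 13 to 32 counts per dimethyl succinate library and 12 to 18 per vehicle library. Abat stood at 0.888, 0.955, 1.35 and 0.895 CPM in dimethyl succinate libraries and 0.212, 1.34, 0.823 and 1.04 CPM in vehicle libraries. Aldh5a1 stood at 0.888, 1.91, 1.28 and 1.02 CPM in dimethyl succinate libraries and 0.847, 1.15, 0.972 and 1.18 CPM in vehicle libraries. The groups overlapped for both genes. Their log2 fold changes of 0.25 and 0.30 had intervals of -0.64 to 1.13 and -0.35 to 0.96, so a difference of 1.5-fold was not detectable at this depth. They were 0.35 for Abat and 0.37 for Aldh5a1 without vehicle replicate 4. An antisense gene, 4932702P03Rik, shares 14.1% of the exon bases of Aldh5a1.

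Many genes, members and others at similar shares, stood apart in vehicle replicate 4. It lay outside the range of the other 7 libraries for 20 of 32 members, above for 12 and below for 8, beside 58.3%, 29% and 29.4% of all genes. Dimethyl succinate replicate 1 lay outside for 12 of 32, beside 33.1%. Against the mean of the other 3 vehicle libraries, vehicle replicate 4 was higher by a log2 difference of 0.619 for Mpc2, 0.437 for Mdh1, 0.418 for Pdha1 and 0.378 for Pdhb, while for Got2 and Dlat the difference was -0.391 and -0.298. Within the pyruvate dehydrogenase complex, Pdha1 and Pdhb were thus the highest and Dlat the lowest of all libraries there. The part of its low mitochondrial share and low T cell marker sum in these values was not tested.

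**Figure D3:**
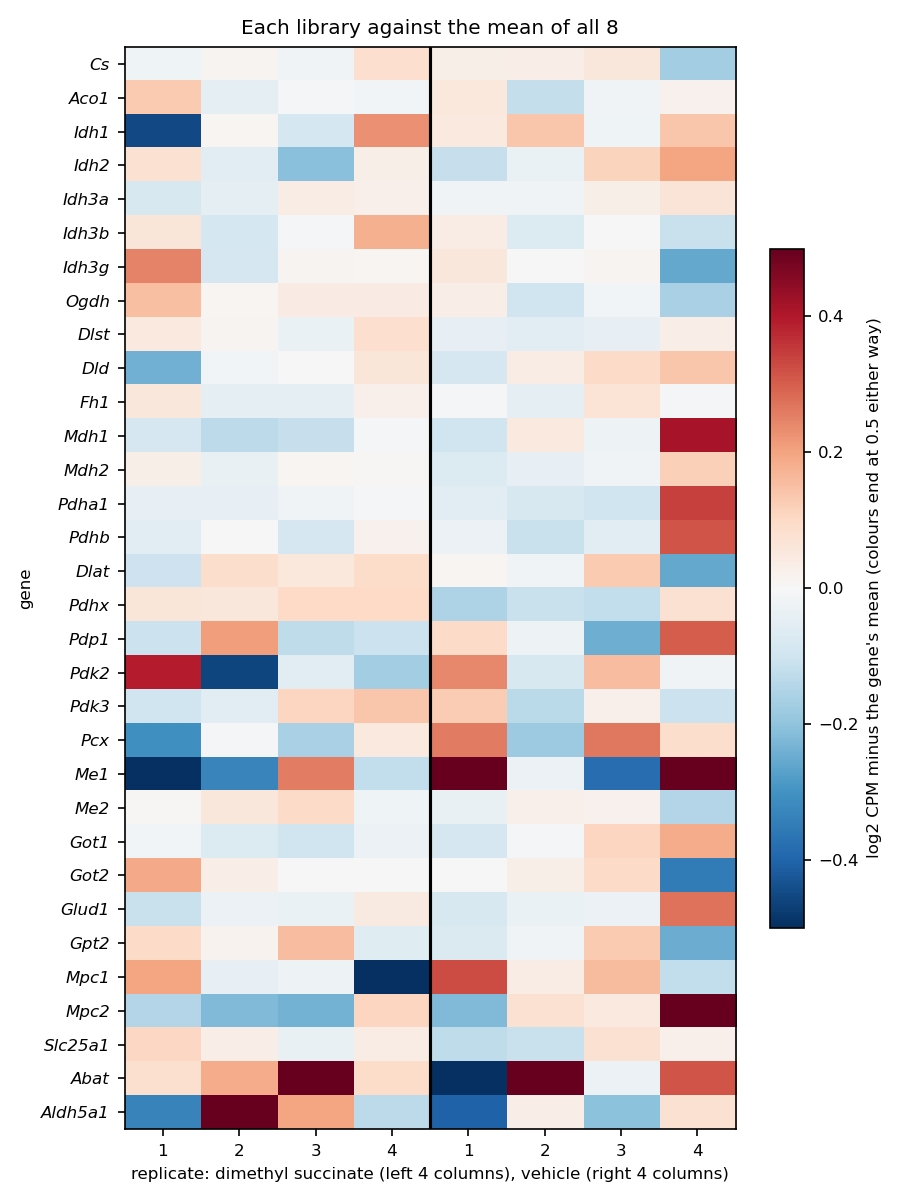
Log2 CPM of each of the 32 genes in each library minus the gene's mean over all 8, dimethyl succinate replicates on the left and vehicle replicates on the right, red above the mean and blue below, with colours ending at 0.5. The rightmost column, vehicle replicate 4, holds the strongest colour of the row for Mdh1, Pdha1, Pdhb, Got2, Glud1 and Mpc2, and the low-count genes Me1, Abat and Aldh5a1 vary in both groups.

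Ratios between related genes within a library do not depend on its total. The ratio of mitochondrial Mdh2 to cytosolic Mdh1 in FPKM was 1.65, 1.63, 1.66 and 1.54 in dimethyl succinate libraries, against 1.56, 1.43, 1.53 and 1.25 in vehicle libraries. The groups overlapped between dimethyl succinate replicate 4 and vehicle replicate 1, and the mean log2 difference of 0.17 was 0.10 without vehicle replicate 4. For Got2 to Got1 the ratio was 0.464, 0.432, 0.433 and 0.410 in dimethyl succinate libraries and 0.427, 0.413, 0.400 and 0.278 in vehicle libraries, again overlapping, with vehicle replicate 4 lowest. Pdhb to Pdha1, the subunits of 1 enzyme, kept the narrowest range, 0.842 to 0.907 and 0.863 to 0.910 in dimethyl succinate and vehicle libraries, with vehicle replicate 4 inside it. Both genes share sequence with other annotated genes, so the level of this ratio is uncertain. Mpc2 to Mpc1 ran from 0.521 to 1.03 and from 0.452 to 1.09 in the same groups, replicate 4 being highest in each. The ratio of Pdk3 to Pdk2 spread from 5.79 to 10.8 in dimethyl succinate libraries and from 7.45 to 7.84 in vehicle libraries. All 9 ratios computed overlapped between the groups, with and without vehicle replicate 4.

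**Figure D4:**
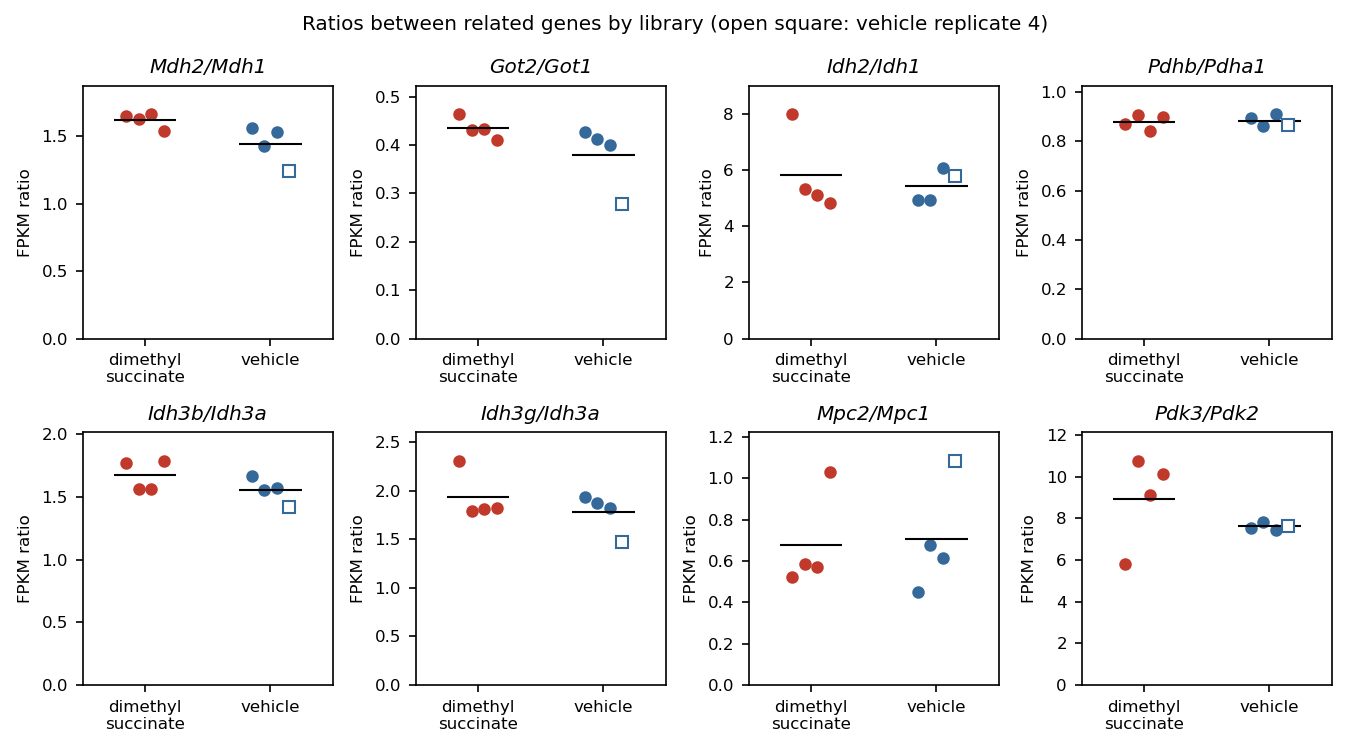
FPKM ratio of 8 pairs of related genes in each library, dimethyl succinate (red) and vehicle (blue), with a line at the group mean and an open square for vehicle replicate 4. The square lies below all other libraries for Mdh2/Mdh1, Got2/Got1, Idh3b/Idh3a and Idh3g/Idh3a, and within them for Pdhb/Pdha1.

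No neighbouring gene of the pathway passed the adjusted threshold either. Of 7 genes of the succinate step itself, subunits of succinate dehydrogenase and succinyl-CoA ligase, 0 passed the adjusted threshold in edgeR and 0 had an unadjusted p below 0.05, beside 5.76% of all genes. Of the 7, 1 lay above 0, beside 49.6% of all genes, and their median log2 fold change was -0.11. Without vehicle replicate 4 that median was -0.021, and 1 of 7, Suclg1, had an unadjusted p below 0.05, beside 8.54% of all genes, with an adjusted p of 0.555 by edgeR. Suclg1, the alpha subunit of the ligase, averaged 105 ± 8.69 CPM in dimethyl succinate libraries and 114 ± 5.32 CPM in vehicle libraries (SD, n = 4 each), a log2 fold change of -0.12, or -0.13 without that library. Sdhc, a membrane anchor of the dehydrogenase, was at -0.25, or -0.0087 without it, and Suclg2, a beta subunit of the ligase, was at -0.11, or -0.12. Sdhc stood at 87.0, 87.2, 85.6 and 88.2 CPM in dimethyl succinate libraries, against 89.9, 85.7, 87.1 and 149.8 CPM in vehicle libraries, where replicate 4 alone stood apart. Of 32 other genes of the cycle and of pyruvate and glutamate supply, 29 were tested, 17 lay above 0, 0 passed the adjusted threshold, and at an unadjusted p below 0.05 there was 1 higher, with 0 lower, beside 2.93% and 2.83% of all genes. That gene was Gls2, a glutaminase that frees glutamate from glutamine. Gls2 stood at 6.69, 5.67, 6.67 and 6.07 CPM in dimethyl succinate libraries, against 5.15, 4.71, 4.56 and 5.01 CPM in vehicle libraries. The groups did not overlap for Gls2 or for Lipt1, a lipoyl transferase named after its values were seen, which is 2 of 29 genes beside 4.82% of all genes. For Gls2 the log2 fold change was 0.37 ± 0.133 (SE), with every dimethyl succinate library above every vehicle library. Its adjusted p was 0.802 and its unadjusted p 0.0160, from the quasi-likelihood test of edgeR. Slc25a22, a mitochondrial glutamate carrier, averaged 54.5 ± 3.83 CPM and 47.1 ± 6.07 CPM in dimethyl succinate and vehicle libraries (SD, n = 4 each), a log2 fold change of 0.21, or 0.12 without vehicle replicate 4. Acod1, which makes itaconate, an inhibitor of succinate dehydrogenase, averaged 4.66 ± 1.17 CPM and 3.61 ± 0.376 CPM in the same groups. Those groups overlapped, with dimethyl succinate replicate 4 highest at 6.20 CPM. The log2 fold change of Acod1 was 0.37 ± 0.194 (SE), with an interval of -0.055 to 0.79, or 0.36 without vehicle replicate 4.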

How the data were processed

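The authors deposited 1 table of raw counts per gene and library, with FPKM, log2 fold changes, p-values and gene lengths, per the file headers. The submitters' processing notes name HISAT2 2.0.5. Counter, annotation, build and strand setting are not given in the sources used here. FPKM as deposited by the authors equal counts over listed length and a scaled library total. Counts were analysed with edgeR 4.0.16 in R 4.3.3: filterByExpr left 13981 genes, including all 32 members, with TMM factors, robust quasi-likelihood F tests over all 8 libraries, and Benjamini-Hochberg adjustment over all genes at 0.05, two-sided. The test was checked on simulated counts. Standard errors came from the F statistic. CPM used TMM-scaled totals of the tested genes. Alternatives were DESeq2 1.42.0, limma 3.58.1, other factors and filters, log2(FPKM + 1) and log2(FPKM + 0.1), a replicate block, and each library left out. In the authors' deposited table, 0 members and 4 of 24973 genes had an adjusted p-value below 0.05, and the lowest p-value of a member was 0.0827. No library was a copy of another, the lowest chi-square per gene between replicates being 2.11. All members are named, in full where unadjusted p was below 0.05, groups did not overlap or FPKM was among the 5 highest or lowest, and up to 3 genes per neighbouring list by p. Members and lists were chosen with earlier results of these data known.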

Additional observations from a re-analysis of the deposited data

Results flagged for a closer look

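In 64 groups of 4 libraries examined, 1 library lay far from the other 3 in 8, where chance flags about 1 in 20. Dixon's ratio, the gap of that library to its nearest neighbour over the range of the group, was above its critical value at the 95% level in each. Vehicle replicate 4 accounted for 6 of them, with a ratio of 0.902 for Pdha1, 0.874 for Glud1, 0.865 for Cs, 0.837 for Pdhx, 0.835 for Dlst and 0.834 for Pdhb. Cs was low in that library and the other 5 genes were high. Flags that come from the same library are not independent draws. Vehicle replicate 4 lay outside the range of the other 7 libraries for 58.3% of all genes. The share of groups flagged over all genes was not computed. Pdp1 was high in dimethyl succinate replicate 2, at 12.6 CPM with a ratio of 0.948, and Abat in dimethyl succinate replicate 3, at 1.35 CPM and 22 counts with a ratio of 0.854.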

How the results depend on the processing

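The count of 0 members called held under DESeq2, limma-voom, 2 other scalings, 2 other filters, both FPKM scales, the block and each library left out. The median log2 fold change of the members ran from -0.028 to 0.019 over these settings, less than 1 SD of 0.0338 from the reported value. Over all genes the count of 0 was 4 with DESeq2, 6 with no low-count filter, and 0 to 28 with a library left out, the 28 being without vehicle replicate 4. With replicate number as a block it was 1. The labels state no pairs, and the main test used none. Same-numbered libraries had correlations of deviations from -0.014 to 0.13, and 2 of 8 libraries correlated best with their own number. Deviations were taken from group means that include vehicle replicate 4, so these values cannot settle whether the numbers are pairs. At an unadjusted p below 0.05 the block gave 2 members, Mdh1 and Mpc2, beside 987 of 13981 genes, and no low-count filter the same 2, beside 1595 of 27185. Of 538 member values under alternatives, 518 kept their direction and their side of the threshold and 20 changed sign, 0 of them past the threshold. Mdh2 was -0.00036 with DESeq2, -0.00035 with median-ratio (RLE) factors, -0.00038 on log2(FPKM + 1) and -0.00037 on log2(FPKM + 0.1); the cause was not tested. With a library left out, Mdh2 ran from -0.017 to 0.046, Abat from -0.069 to 0.56, Aco1 from -0.0059 to 0.055, Fh1 from -0.024 to 0.015, Dlat from -0.0056 to 0.12, Pdhb from -0.12 to 0.037, Pdha1 from -0.11 to 0.051, Glud1 from -0.11 to 0.017, Pdp1 from -0.16 to 0.025 and Cs from -0.025 to 0.049. The 10 CPM filter left 26 members. All 81 ratio values under alternatives lay within 1 SD between replicates of those reported. For a library left out this was fixed in advance, since 1 of 4 libraries cannot move a group mean that far. The log2 difference then changed sign for Mpc2/Mpc1, Idh2/Idh1 and Pdhb/Pdha1. For Mpc2/Mpc1 it was -0.047 with all 8 libraries and ran from -0.27 to 0.18. For Idh2/Idh1 it was 0.072, and -0.091 without dimethyl succinate replicate 1. Depth limits the 3 members under 2 CPM.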
